A study of Mus musculus with 6 samples.

Results

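Histones, the proteins that package DNA, carry methyl and acetyl groups that mark active and silent genes, and dedicated enzymes write, read and erase these marks. The genes described here encode histone methyltransferases, histone demethylases, Polycomb proteins, the HP1 proteins that bind methylated histone H3, the PRDM family, and a set of deacetylases and sirtuins. They were taken by a rule on gene symbols, which names no measured value but was written with earlier results of these data known, and are 81 of the 22001 genes in the count table. Of these, 76 had enough counts to be tested. In the developing cortex such enzymes are known for holding progenitor and neuronal gene programmes apart. Polycomb repressive complex 2 (PRC2) methylates lysine 27 of histone H3 (H3K27), Polycomb repressive complex 1 (PRC1) binds that mark and ubiquitinates histone H2A, and the demethylases of the Kdm6 family remove the mark.

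RNA was sequenced from mouse neocortical cells taken at E14.5, 24 h after in utero electroporation at E13.5, in which plasmid DNA injected into the brain ventricle is driven by current into the cells lining it. The Insm1 group (3 libraries) received 1 plasmid that carries both Insm1, a zinc-finger transcription factor of neural progenitors, and the red fluorescent protein mCherry. The control group (3 libraries) received a plasmid with mCherry and no Insm1, and in both groups cells positive for mCherry were sorted. The labels give no mouse strain, no sex, no plasmid promoter and no word on pooling of embryos or separate litters. The p-values below therefore rest on library-to-library spread, and how much of it is technical is not known. Y-linked genes, given below, set Insm1 library 1 apart from Insm1 libraries 2 and 3. Library totals ran from 30017645 to 31645135 counts. Insm1 itself was at 1570, 2173 and 1436 CPM (counts relative to the TMM-scaled library total) in the Insm1 libraries, against 222, 331 and 371 CPM in the controls, and plasmid and chromosomal transcripts are not told apart in these counts. Of neocortical markers, Emx1 was at 86.9 to 98.6 CPM in Insm1 libraries and 69.7 to 76.05 CPM in controls, and Lhx2 at 839.6 to 982 CPM in Insm1 libraries and 672 to 804 CPM in controls. In contrast, 4 endothelial genes summed to at most 1.72 CPM in any library. The 4 microglial genes summed to 6.08 to 21.1 CPM in Insm1 libraries, against 0.68, 40.2 and 4.37 CPM in controls 1 to 3. The 4 Cajal-Retzius neuron genes summed to 31 to 46.7 CPM in Insm1 libraries, against 127, 30.5 and 120 CPM in controls 1 to 3. Haemoglobin and other red-cell genes summed to 1710 to 3670 CPM in Insm1 libraries and 186 to 3130 CPM in controls, with control 2 far above the other controls.

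Kdm6b was the member that passed the test. It encodes a JmjC-domain demethylase that removes methyl groups from H3K27, and it rose 1.37-fold with Insm1. Kdm6b stood at 146, 137 and 136 CPM in the Insm1 libraries, against 98.6, 108 and 100.2 CPM in the controls. Every Insm1 library lay above every control, and the libraries within each group lay close together. The means were 140.0 ± 5.66 CPM with Insm1 and 102 ± 5.08 CPM in controls (SD, n = 3 each), a log2 fold change of 0.45 (SE 0.07, 95% interval 0.29 to 0.60; edgeR quasi-likelihood adjusted p = 0.010). Of 76 tested members 1 was thus called higher and 0 lower. Over the 13560 tested genes 3.35% were called, 1.23% higher and 2.12% lower, so the share of members called was no larger than that of genes at large. DESeq2 called 3 members higher and 1 lower, beside 7.96% of all genes it tested. In edgeR's test 16 members had an unadjusted p below 0.05, 10 of them higher and 6 lower, and over all tested genes that share was 17.2%. Without control 3 the Kdm6b call was lost (log2 fold change 0.44, adjusted p = 0.0524) and no member was called. Projection-neuron and apical-progenitor markers moved between the groups as well. The 7 projection-neuron genes summed to 7020 to 7660 CPM in Insm1 libraries and 5950 to 6090 CPM in controls, with 4 called higher. The 8 apical-progenitor genes summed to 2190 to 2690 CPM in Insm1 libraries and 2940 to 3420 CPM in controls, with 4 called lower. The 5 S-phase genes summed to 528 to 616 CPM in Insm1 libraries and 692 to 782 CPM in controls, with 3 of 5 called lower. Sums of the 5 genes of G2 and M phase overlapped, at 1320 to 1900 CPM with Insm1 and 1490 to 2010 CPM in controls, with none called. Those of the 6 basal-progenitor genes overlapped too, at 1620 to 1900 CPM with Insm1 and 1520 to 1750 CPM in controls. Of these 6 genes, 2 were called higher and 4 had negative log2 fold changes. The 6 interneuron genes summed to 5.40 to 8.21 CPM in Insm1 libraries and 8.31 to 16.1 CPM in controls, with none called (edgeR, 2 lower and 0 higher at an unadjusted p below 0.05). The part of these shifts in the Kdm6b value was not tested. In bulk samples such as these, fewer cells of a type and less RNA per cell cannot be told apart.

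Kdm6b (ENSMUSG00000018476) spans bases 69398508 to 69413675 of chromosome 11 on the minus strand (GRCm38, GENCODE M21). Its exons overlap no other gene of the count table. The antisense gene Kdm6bos, not in that table, shares 81 of its 75-base windows, 1.23%, and the library type marks no strand. Whether reads of Kdm6b could be mistaken for those of its X-linked relative Kdm6a depends on how alike the sequences are. The pair below is the most alike coding stretch of 75 bases, the length of a read, that lies within 1 exon of each gene, with capitals for letters that differ.
Kdm6b (chr11:69401023-69401097, minus strand): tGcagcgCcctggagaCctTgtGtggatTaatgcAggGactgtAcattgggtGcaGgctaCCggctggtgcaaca
Kdm6a (chrX:18271928-18272002, plus strand): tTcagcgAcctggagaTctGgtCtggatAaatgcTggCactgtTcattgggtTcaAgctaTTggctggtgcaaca
Even here Kdm6b and Kdm6a differ at 13 of 75 positions, and their longest identical run in the aligned coding sequence is 14 bases, so no read from that aligned sequence matches both exactly.

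The other H3K27 genes did not pass the test. Kdm6a, the X-linked demethylase of the same mark, was at 76.8, 53.6 and 48.0 CPM in Insm1 libraries, against 59.8, 54.1 and 63.8 CPM in controls, so the groups overlapped. Its log2 fold change was 0.01, with a 95% interval from -0.35 to 0.36. The ratio of Kdm6b to Kdm6a, per exon length, was 2.30, 3.08 and 3.41 in Insm1 libraries, against 1.99, 2.41 and 1.89 in controls. Insm1 library 1 lay within the control range of this ratio. The log2 ratio differed by 0.47 (exact two-sided permutation test, n = 3 each, p = 0.2, adjusted p = 0.4 over 4 paralog ratios), where 3 libraries against 3 cannot give less than 0.1.

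Among PRC2 subunits, Ezh2, the main catalytic subunit in dividing cells, was at 276, 254 and 274 CPM in Insm1 libraries, against 253, 248 and 251 CPM in controls. The groups did not overlap, but Insm1 library 2 and control 1 were nearly level. Its log2 fold change of 0.095 did not pass (adjusted p = 0.466, 95% interval -0.03 to 0.22). Ezh1, the catalytic subunit known from non-dividing cells, averaged 11.9 ± 0.897 CPM with Insm1 and 11.6 ± 2.41 CPM in controls (SD, n = 3 each). Per exon length Ezh2 exceeded Ezh1 23.6 to 28.2 times in Insm1 libraries and 20.1 to 30.3 times in controls. The difference of the log2 ratio was 0.05 (exact permutation p = 0.9, n = 3 each). Eed, which reads H3K27 methylation, averaged 79.1 ± 1.32 CPM with Insm1 and 77.3 ± 1.43 CPM in controls. Suz12, the scaffold of the complex, averaged 232 ± 8.47 CPM with Insm1 and 247 ± 9.95 CPM in controls (adjusted p = 0.526, edgeR).

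**Figure D1:**
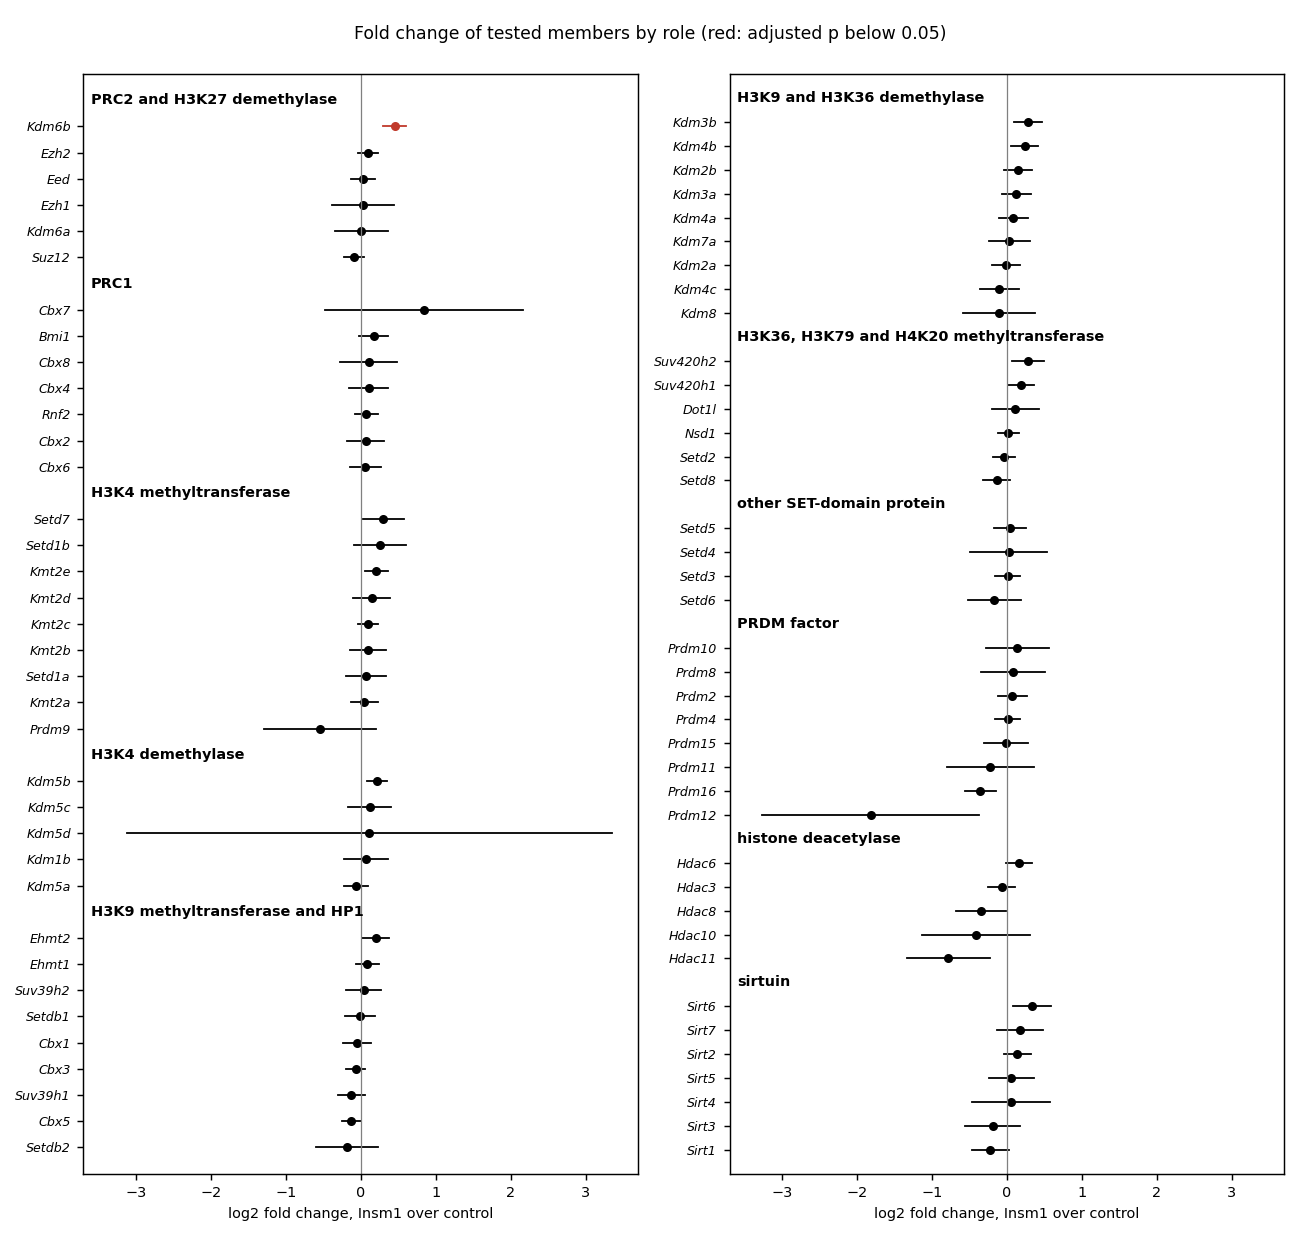
Log2 fold change of Insm1 over control (x axis) for 75 of the 76 tested members, grouped by role, with points at the edgeR estimate and lines for the 95% interval. Kdm6b, at 0.45, is the member drawn in red for an adjusted p below 0.05, and the longest line, from -3.12 to 3.34, is that of Kdm5d.

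Most PRC1 genes were abundant and none passed the test. Rnf2, the ubiquitin ligase of PRC1, averaged 236 ± 18.0 CPM with Insm1 and 224 ± 10.6 CPM in controls (SD, n = 3 each). Bmi1, its Polycomb ring-finger partner, was at 184, 218 and 204 CPM in Insm1 libraries, against 176, 165 and 197 CPM in controls (log2 fold change 0.17, adjusted p = 0.358). Insm1 library 1 lay below control 3, so the groups overlapped, and 11.2% of the Bmi1 windows also occur in Gm5946. Of the chromodomain subunits, Cbx2 averaged 161 ± 9.18 CPM with Insm1 and 154 ± 26.8 CPM in controls, with control 2 the highest of all 6 libraries at 184.5 CPM. Cbx7 was near the floor of detection, at 2.62, 0.616 and 0.840 CPM in Insm1 libraries, against 0.648, 0.746 and 0.881 CPM in controls. Its log2 fold change of 0.84 came from Insm1 library 1, and without that library it was -0.06. All 7 PRC1 log2 fold changes were positive, with a median of 0.10, beside a median of -0.01 over all tested genes. The median was 0.05 without control 1, 0.205 without control 2 and 0.03 in limma on log2(TPM + 1). That fit used the TPM as deposited, which are not per exon length. Without Insm1 library 1 the positive ones became 5 of 7, and in limma on log2(TPM + 1) they were 6 of 7.

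The H3K4 methyltransferases, which write the mark of active promoters and enhancers, were grouped with their relative Kmt2e. None of the 9 tested members of this group was called. Kmt2e, a SET-domain protein bound to active chromatin, was at 311, 337 and 298 CPM in Insm1 libraries, against 266, 292 and 262 CPM in controls. The groups did not overlap, with a log2 fold change of 0.205 (SE 0.07, edgeR adjusted p = 0.149). Kmt2e shares exon sequence with Srpk2, over 12.4% of its 75-base windows, and Setd1a shares 53.8% of its windows with Gm49388. Setd7, which adds a single methyl group to H3K4, was at 20.8, 20.7 and 21.5 CPM in Insm1 libraries, against 17.2, 18.5 and 15.4 CPM in controls (log2 fold change 0.30, adjusted p = 0.252). Kmt2c, an enhancer methyltransferase, was at 243, 261 and 232 CPM in Insm1 libraries, against 232, 228 and 229.5 CPM in controls, with a log2 fold change of 0.10 (adjusted p = 0.498). In Kmt2c the highest control and the lowest Insm1 library were nearly level. Prdm9, the methyltransferase that marks meiotic recombination sites, was at 2.20, 2.82 and 1.65 CPM in Insm1 libraries, against 2.40, 3.47 and 3.85 CPM in controls, so the groups overlapped. Kmt2a, Kmt2b, Kmt2d, Setd1a and Setd1b had log2 fold changes between 0.05 and 0.255, none called, and 8 of the 9 in the group were positive.

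Among the H3K4 demethylases Kdm5b was the most abundant, at 128 TPM (a level that divides counts by the length of the gene's exons) on average over the 6 libraries. Kdm5b was at 583, 667 and 654 CPM in Insm1 libraries, against 550.2, 549 and 538 CPM in controls. The controls lay close together, the Insm1 libraries were more spread, with library 1 the lowest, and the groups did not overlap. Its log2 fold change of 0.22 (SE 0.06) had an edgeR adjusted p of 0.0958, outside the threshold. DESeq2 called it higher (0.0207), and so did edgeR without Insm1 library 1 (log2 fold change 0.27, adjusted p = 0.0363). Kdm5a averaged 205 ± 13.1 CPM with Insm1 and 214 ± 14.6 CPM in controls, and the flavin-dependent demethylase gene Kdm1b had a log2 fold change of 0.07 (adjusted p = 0.862).

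Kdm5c and Kdm5d, the X and Y copies of another H3K4 demethylase, varied more within the Insm1 group than between the groups. Kdm5d was at 0.517, 22.7 and 30.5 CPM in Insm1 libraries, against 13.4, 21.03 and 15.2 CPM in controls. Insm1 library 1 was close to 0, while Insm1 libraries 2 and 3 were above all controls. Uty, the Y-linked relative of Kdm6a, was likewise near 0 in Insm1 library 1 alone, at 1.36, 26.3 and 34.9 CPM in Insm1 libraries, against 11.9, 14.9 and 14.6 CPM in controls. The Y-linked genes Ddx3y, Eif2s3y and Uty summed to 3.46, 104 and 116 CPM in Insm1 libraries 1, 2 and 3, against 45.8, 60.8 and 49.2 CPM in controls 1, 2 and 3. Kdm5c had its highest value in Insm1 library 1, at 176 CPM beside 139 and 123 CPM in the other Insm1 libraries, against 145, 119 and 139.8 CPM in controls. Kdm6a was likewise highest in Insm1 library 1, as given above. Both X-linked genes are known to escape X inactivation in female mouse cells. Without Insm1 library 1 the log2 fold change of Kdm5c was -0.04 in place of 0.12, that of Kdm6a -0.22 in place of 0.01, and that of Kdm5d 0.68 in place of 0.11, and none of these passed the edgeR test (adjusted p = 0.898, 0.360 and 0.143). Without Insm1 library 3 the value of Kdm5d was -0.52. The other X-linked members, Hdac6, Hdac8 and Suv39h1, did not have their highest value of the 6 libraries in Insm1 library 1. Among the Insm1 libraries alone Hdac8 was highest in library 1, at 19.2 CPM beside 13.8 and 17.5 CPM. The labels do not give the sex of the embryos.

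The X and Y copies are similar in sequence, so where they differ decides whether a read can be assigned. Their most alike coding stretches of 75 bases within 1 exon follow, with differing letters in capitals.
Kdm5d (chrY:927016-927090, plus strand): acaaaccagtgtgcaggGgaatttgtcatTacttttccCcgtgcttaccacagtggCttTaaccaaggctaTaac
Kdm5c (chrX:152261946-152262020, plus strand): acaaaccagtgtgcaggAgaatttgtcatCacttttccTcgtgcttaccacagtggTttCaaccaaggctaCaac
Uty (chrY:1169183-1169257, minus strand): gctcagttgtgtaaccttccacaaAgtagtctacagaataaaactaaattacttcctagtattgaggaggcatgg
Kdm6a (chrX:18246975-18247049, plus strand): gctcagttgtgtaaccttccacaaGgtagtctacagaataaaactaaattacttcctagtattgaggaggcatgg
Kdm5d and Kdm5c differ at 6 of the 75 positions and are 78.1% identical over 4574 aligned coding bases. Uty and Kdm6a differ at 1 of 75 positions here and are 83.9% identical over 3618 aligned bases. No run of 75 identical coding bases exists in either pair, the longest being 35 and 61 bases. How the authors' alignment assigned reads with mismatches is not stated in the sources used here.

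**Figure D2:**
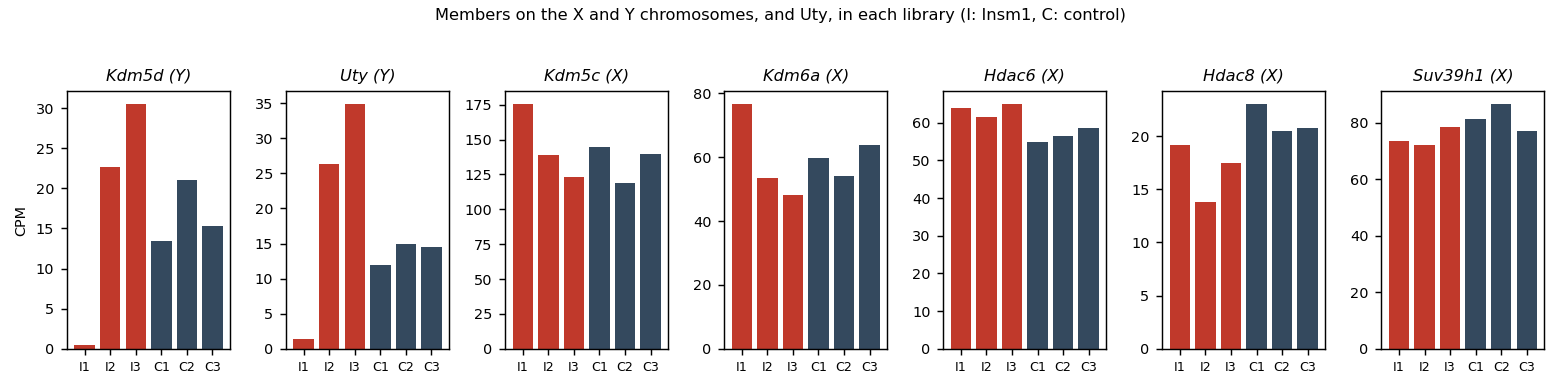
CPM (y axis, from 0) of the members on the X and Y chromosomes and of Uty in each of the 6 libraries, with Insm1 libraries I1 to I3 left of controls C1 to C3. Kdm5d and Uty are near 0 in I1 (0.517 and 1.36 CPM), the library in which Kdm5c and Kdm6a are highest (176 and 76.8 CPM).

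The H3K9 methyltransferases and the HP1 proteins, which build and bind silent heterochromatin, gave no call among 9 members, 3 positive and 6 negative. Ehmt2 (G9a), a dimethyltransferase of H3K9 in euchromatin, was at 217, 192 and 192 CPM in Insm1 libraries, against 169, 191 and 165 CPM in controls. The groups did not overlap, though control 2 was nearly level with Insm1 libraries 2 and 3, and the log2 fold change was 0.20 (adjusted p = 0.237). Its partner Ehmt1 had a log2 fold change of 0.09, and the Ehmt2 to Ehmt1 ratio differed by 0.11 on the log2 scale (exact permutation p = 0.2, n = 3 each). Suv39h1, which writes H3K9 trimethylation in pericentric heterochromatin, averaged 74.7 ± 3.32 CPM with Insm1 and 81.6 ± 4.89 CPM in controls, and shares 21.5% of its windows with Gm14820. Its paralog Suv39h2 averaged 45.1 ± 3.62 CPM with Insm1 and 43.9 ± 4.33 CPM in controls, and their log2 ratio differed by -0.17 (exact permutation p = 0.3, n = 3 each). Cbx5 (HP1 alpha) was at 577, 527 and 534 CPM in Insm1 libraries, against 601, 609.9 and 581 CPM in controls. The Insm1 libraries lay below all controls, Insm1 library 1 only narrowly, with a log2 fold change of -0.13 (adjusted p = 0.278). Cbx3 (HP1 gamma) was at 357, 351 and 336 CPM in Insm1 libraries, against 351, 365 and 377 CPM in controls, with overlap (log2 fold change -0.07, adjusted p = 0.631). Of its 75-base windows 26.3% also occur in transcripts of other genes, among them the pseudogene Cbx3-ps7.

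Of the H3K9 and H3K36 demethylases none of 9 tested members passed. Kdm3b, a demethylase of H3K9 mono- and dimethylation, was at 110.5, 95.7 and 115 CPM in Insm1 libraries, against 88.8, 87.5 and 88.6 CPM in controls. The controls were nearly identical and all lay below the Insm1 libraries. Its log2 fold change was 0.28 (SE 0.08, edgeR adjusted p = 0.105), and DESeq2 called Kdm3b higher (adjusted p = 0.0329). Kdm4b, which removes trimethylation of H3K9 and H3K36, was at 221, 211 and 226 CPM in Insm1 libraries, against 197, 197 and 164 CPM in controls, without overlap (log2 fold change 0.24, adjusted p = 0.154). Kdm3a, a paralog of Kdm3b, was at 166, 199.9 and 201 CPM in Insm1 libraries, against 175, 160.3 and 184 CPM in controls, with overlap and a log2 fold change of 0.13 (adjusted p = 0.545). Kdm2a, Kdm4a, Kdm4c, Kdm7a and Kdm8 had log2 fold changes between -0.11 and 0.085. Kdm2b, which recruits a form of PRC1 to CpG islands, had 0.15 and shares exon sequence with Rnf34.

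The methyltransferases of H3K36, H3K79 and H4K20 likewise gave no call. Suv420h2, which writes H4K20 trimethylation, was at 63.5, 52.9 and 58.8 CPM in Insm1 libraries, against 46.8, 51.5 and 46.3 CPM in controls. The groups did not overlap (log2 fold change 0.28, SE 0.10, adjusted p = 0.169, edgeR). Its paralog Suv420h1 had a log2 fold change of 0.19 (adjusted p = 0.241), and Setd8, which adds the first methyl group to H4K20, one of -0.14 (adjusted p = 0.422). Dot1l, the H3K79 methyltransferase, was at 62.7, 69.5 and 67.3 CPM in Insm1 libraries, against 52.2, 77.3 and 55.1 CPM in controls, with control 2 above every Insm1 library. Setd2 and Nsd1, writers of H3K36 methylation, had log2 fold changes of -0.04 and 0.015, with 95% intervals within 0.20 of 0 on the log2 scale. Setd3, a SET-domain enzyme known to methylate actin, was at 99.8 ± 4.33 CPM with Insm1 and 99.2 ± 5.96 CPM in controls (SD, n = 3 each), with 24.5% of its windows shared with other transcripts. Setd6, a methyltransferase of the NF-kappaB subunit RelA, was at 12.96, 10.9 and 12.6 CPM in Insm1 libraries, against 14.3, 11.8 and 14.9 CPM in controls (log2 fold change -0.17, adjusted p = 0.677).

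**Figure D3:**
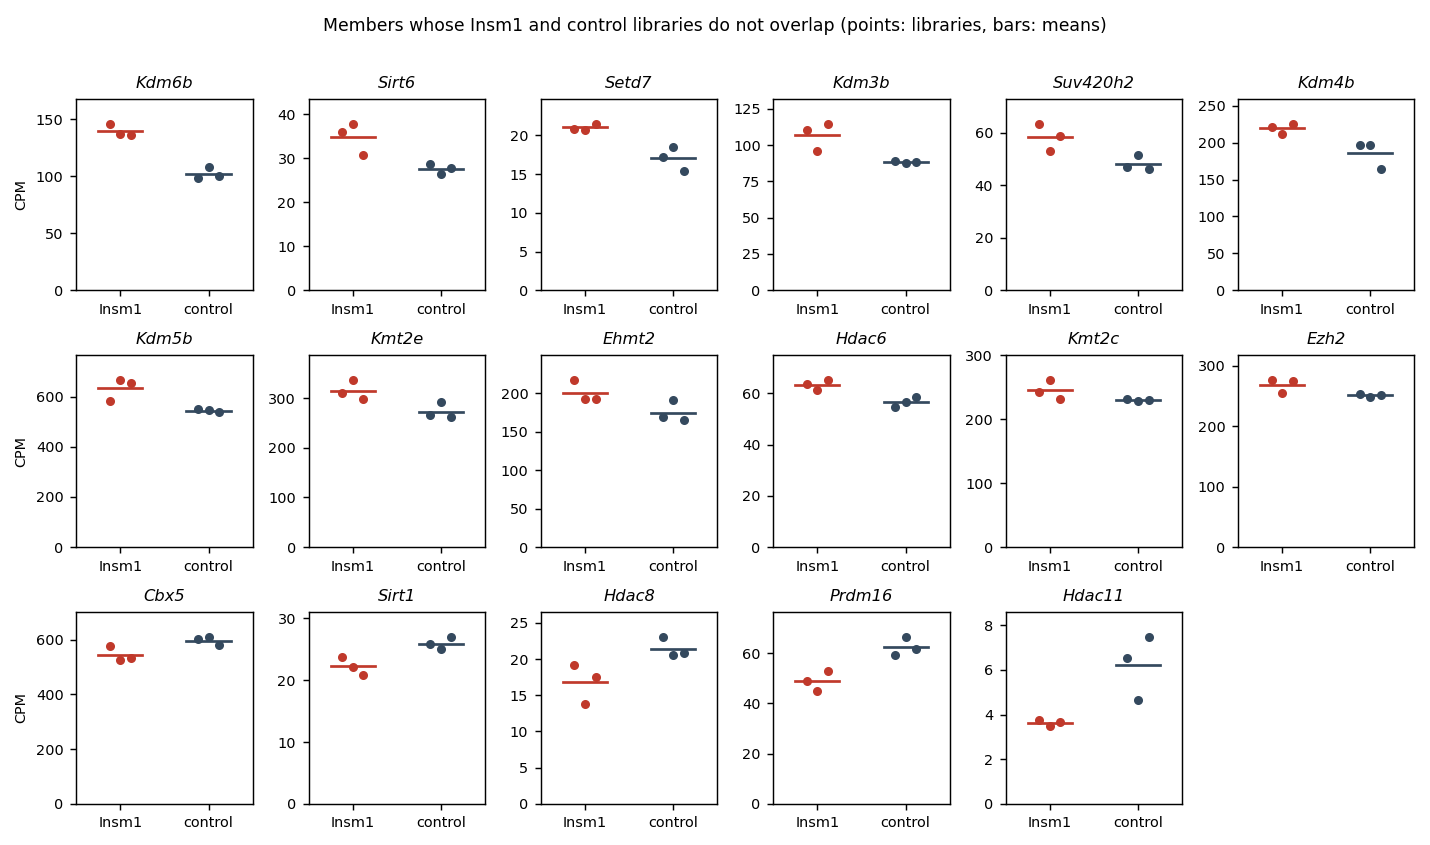
CPM (y axis, from 0) of 17 of the 18 members whose Insm1 and control libraries do not overlap, with points for the 3 libraries of each group and bars for the means, Insm1 left of control. In 12 panels the libraries have Insm1 above control, led by Kdm6b, and the last 5 have it below.

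The PRDM factors, zinc-finger proteins with a domain related to the SET domain, held the member nearest to a call on the lower side. Prdm16, a regulator of radial glia, the apical progenitors of the cortex, was at 48.8, 44.9 and 53.1 CPM in Insm1 libraries, against 59.4, 66.5 and 61.8 CPM in controls. All Insm1 libraries lay below all controls. Its log2 fold change of -0.35 (SE 0.09) had an edgeR adjusted p of 0.0774, outside the threshold, whereas DESeq2 called it lower (adjusted p = 0.0161). Leaving out single libraries gave adjusted p-values between 0.0994 and 0.221. The apical-progenitor genes also lay lower, as given above, and all 8 had negative log2 fold changes. Slc1a3 fell 2.10-fold, Fabp7 1.80-fold, Nes 1.51-fold and Vim 1.44-fold (edgeR adjusted p = 0.00386, 0.00113, 0.0157 and 0.0116). Hes1, Sox2, Hes5 and Pax6 were not called, with log2 fold changes of -0.82, -0.48, -0.11 and -0.10 (edgeR adjusted p = 0.0854, 0.119, 0.718 and 0.567). Among the Insm1 libraries Prdm16 was highest in library 3, where the apical-progenitor sum was lowest, at 2189 CPM. Without control 3 Nes (0.0517) and Vim (0.0563) missed the threshold, as Nes did without Insm1 library 2 (0.0557) or control 1 (0.0556). The S-phase genes were lower too, while those of G2 and M phase overlapped, as given above. The part of these shifts in the Prdm16 value was not tested. Prdm16 shares 109 exon bases with B230104I21Rik.

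Prdm8, a factor of cortical projection neurons, was the most abundant PRDM gene, at 83.7 TPM per exon length. It was at 96.5, 132 and 122 CPM in Insm1 libraries, against 89.0, 143 and 98.8 CPM in controls, with control 2 the highest library of all and overlapping groups (log2 fold change 0.08, adjusted p = 0.881). Of its 75-base windows 26.7% also occur in A730035I17Rik. Prdm12, a factor known from sensory neurons and the spinal cord, was at 0.937, 1.01 and 0.291 CPM in Insm1 libraries, against 0.777, 3.15 and 3.98 CPM in controls. Control 1 lay among the Insm1 libraries, and the log2 fold change of -1.82 did not pass (95% interval -3.26 to -0.37, adjusted p = 0.176). Kdm4d, Prdm1, Prdm6, Prdm13 and Prdm14 were too low to be tested, at no more than 0.227 CPM in any library.

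Among the histone deacetylases 4 of 5 log2 fold changes were negative, with a median of -0.35, and none passed. Over all tested genes 48.1% were positive. Without Insm1 library 1 the median of the deacetylases was -0.145, and without Insm1 library 2 -0.23. With the filter of 5 CPM in 3 libraries it was -0.22 over 4 genes. Hdac10, also low in counts, had a log2 fold change of -0.41 with overlapping groups (edgeR adjusted p = 0.600). The 6 other histone deacetylase genes, among the further lists below, had 5 positive log2 fold changes and a median of 0.08, with Hdac5 called higher. Hdac11, a deacylase found in brain, was at 3.75, 3.47 and 3.65 CPM in Insm1 libraries, against 6.54, 4.67 and 7.48 CPM in controls. The Insm1 libraries lay close together below all controls, with a log2 fold change of -0.78 (SE 0.25, edgeR adjusted p = 0.128). Without control 2 the values were -0.95 and 0.0507. Of the Hdac11 windows 21.1% also occur in other transcripts. Hdac8, which acts on cohesin, was at 19.2, 13.8 and 17.5 CPM in Insm1 libraries, against 23.1, 20.5 and 20.8 CPM in controls (log2 fold change -0.35, adjusted p = 0.260). Hdac6, a cytoplasmic deacetylase of tubulin, was at 63.8, 61.4 and 65.1 CPM in Insm1 libraries, against 54.8, 56.6 and 58.6 CPM in controls. It was higher in every Insm1 library than in any control, with a log2 fold change of 0.16 (adjusted p = 0.336). Hdac3, the deacetylase of the NCoR and SMRT corepressors, was the most abundant, at 118 TPM per exon length, and was at 135, 125 and 131.5 CPM in Insm1 libraries, against 139.9, 148 and 123 CPM in controls, with overlap.

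Sirtuins, deacylases that consume NAD, gave no call among 7 members. Sirt6, a nuclear enzyme that deacetylates histone H3, was at 36.04, 37.9 and 30.7 CPM in Insm1 libraries, against 28.7, 26.4 and 27.8 CPM in controls. The groups did not overlap, with a log2 fold change of 0.34 (SE 0.11, edgeR adjusted p = 0.149). Sirt1, another nuclear deacetylase, was at 23.8, 22.1 and 20.8 CPM in Insm1 libraries, against 25.8, 25.02 and 26.99 CPM in controls, lower in every Insm1 library (log2 fold change -0.22, adjusted p = 0.358). Sirt2, a mainly cytoplasmic enzyme, was the most abundant per exon length at 57.3 TPM, and the mitochondrial Sirt3, Sirt4 and Sirt5 were at 6.02, 6.18 and 11.4 TPM. Sirt3 shares 26.7% of its windows with Ric8a and Psmd13.

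Over all 76 tested members, 18, or 23.7%, had Insm1 libraries wholly above or below the controls, beside 22.2% of all tested genes. Of these 12 were higher and 6 lower, where 10.4% of all genes were higher and 11.8% lower. The share of members is near that of all genes, so the 17 of these that were not called are no result about the members. Of the members' log2 fold changes 50, or 65.8%, were positive and 26 negative, beside 48.1% positive over all genes, with a median of 0.055, against -0.01 over all genes. The split was 50 to 26 under RLE scaling and 47 to 29 under upper-quartile scaling. With single libraries left out it ran from 43 to 32 (without Insm1 library 2, median 0.021) to 51 to 25 (without control 3, median 0.048). Limma on log2(TPM + 1), with TPM as deposited, changes the measure and the model together. There 33 were positive and 42 negative, and the median over all genes moved to -0.05. The deposited TPM mostly match division by the genomic span with introns, not by exon length. Of the 76 members 62 had a 95% interval that lay within 1.5-fold in either direction, and Kdm6b is among the other 14. The members were also more abundant than most genes, with a median of 66.0 CPM beside 27.4 CPM over all tested genes. Control 2 was the highest control in 37 of the 76 members and the lowest in 24.

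Levels of different members were compared per exon length, in TPM recomputed from the counts. The most abundant were the HP1 genes Cbx5 and Cbx3 (228 and 213 TPM over the 6 libraries), Rnf2, Suz12 (174 TPM), Bmi1 (172 TPM), Kdm4b (148 TPM), Ezh2 (139 TPM) and Cbx2 (133 TPM). Cbx5 averaged 213 ± 11.1 TPM with Insm1 and 242 ± 2.00 TPM in controls, and Rnf2 201 ± 14.6 TPM with Insm1 and 198 ± 10.7 TPM in controls (SD, n = 3 each). Kdm6b, the called gene, ranked 23rd of 76, at 70.7 ± 2.99 TPM with Insm1 and 53.7 ± 2.15 TPM in controls. The 9 genes grouped as H3K4 methyltransferases and their relative Kmt2e ran from 2.28 TPM for Prdm9 to 101 TPM for Kmt2e, with a median of 9.94 TPM. PRC1 genes ran from Rnf2 at the top down to 0.582 TPM for Cbx7, the widest span of the 11 role groups as a ratio of highest to lowest. The libraries were primed at the poly(A) tail, and how evenly reads cover long transcripts was not tested.

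**Figure D4:**
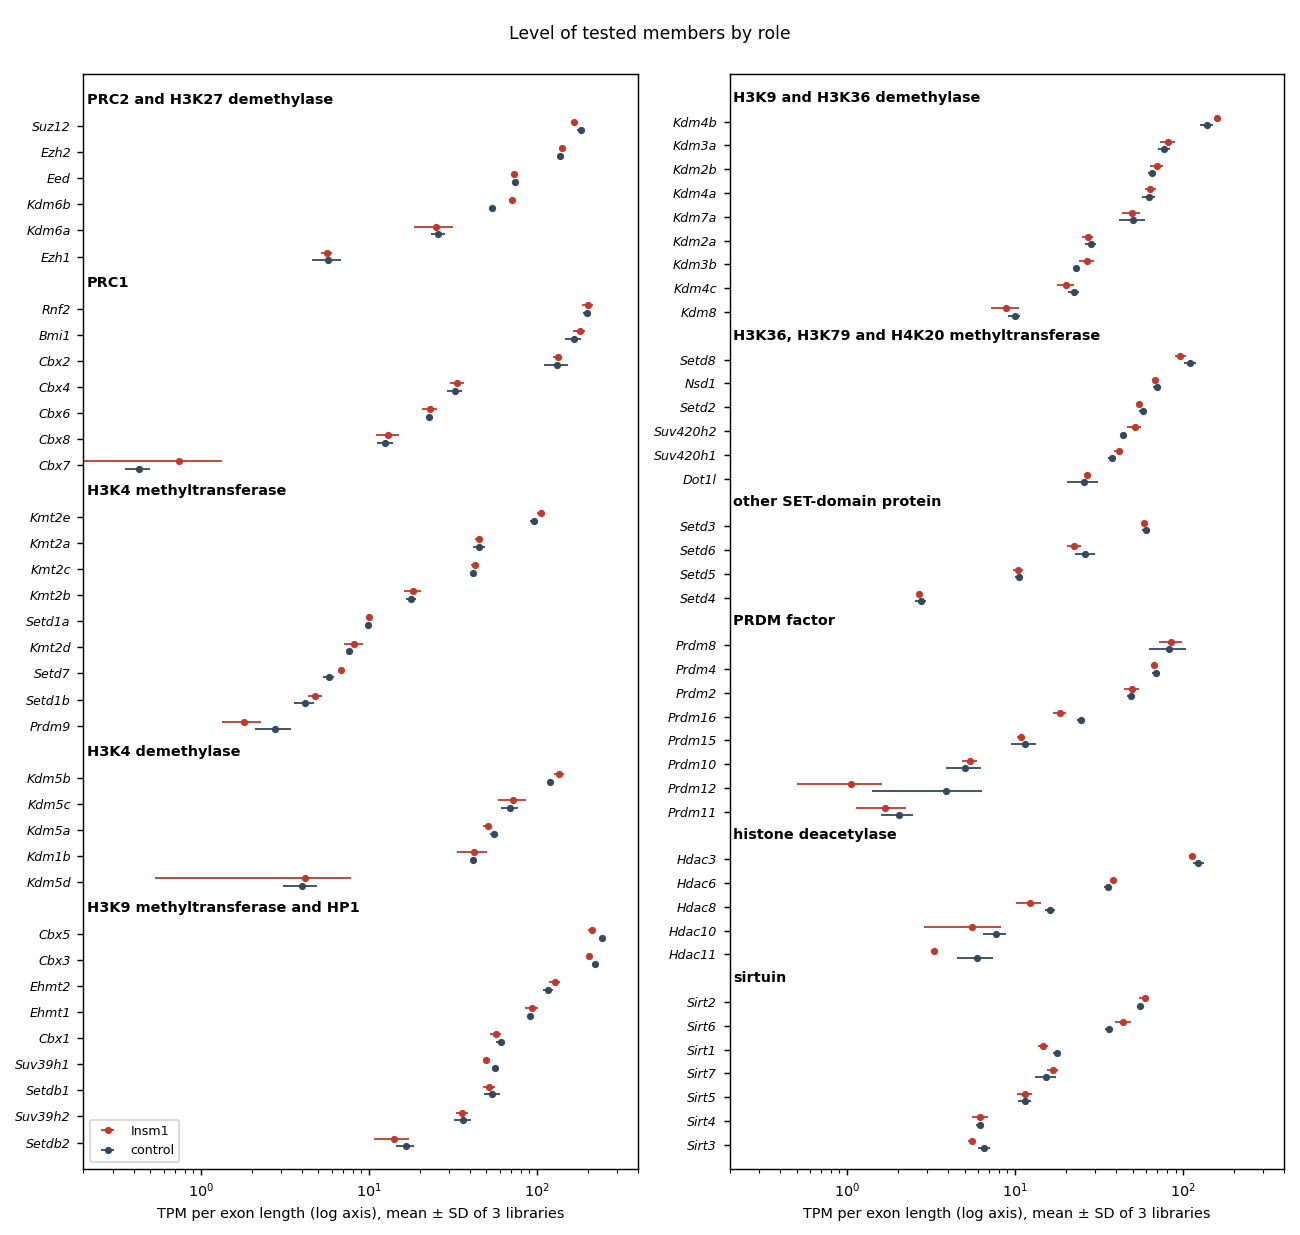
Level of 75 of the 76 tested members in TPM per exon length (x axis, log scale), grouped by role, as mean ± SD of 3 libraries, Insm1 in red above control in blue-grey. Levels run from 0.582 TPM (Cbx7) to 228 TPM (Cbx5) over all libraries.

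Partners and relatives of these enzymes, in 9 further lists of 113 measured genes, gave 4 genes called higher and 1 lower of 110 tested, with a median log2 fold change of 0.03. These were 4.55% of the tested partner genes, 3.64% higher and 0.909% lower, beside 3.35% of all tested genes, 1.23% higher and 2.12% lower. Chd3, a helicase of the NuRD deacetylase complex, was at 523, 535 and 509.9 CPM in Insm1 libraries, against 404, 397 and 407 CPM in controls, and rose 1.30-fold (adjusted p = 0.00654, edgeR). Hdac5, a class IIa deacetylase, rose 1.39-fold, to 189 ± 12.9 CPM with Insm1, against 135 ± 11.7 CPM in controls (SD, n = 3 each; edgeR adjusted p = 0.0129). Prmt6, an arginine methyltransferase of histone H3, rose 1.35-fold (adjusted p = 0.0304), and Kdm1a, the H3K4 demethylase of the CoREST complex, 1.21-fold (adjusted p = 0.0272). Dnmt3a, a DNA methyltransferase, fell 1.40-fold, to 96.7 ± 6.23 CPM with Insm1, against 135 ± 10.2 CPM in controls (SD, n = 3 each; edgeR adjusted p = 0.0123). Chd3 was called whichever single library was left out. Hdac5 and Dnmt3a were called in 3 of those 6 fits and missed the threshold without Insm1 library 2 (adjusted p = 0.0543 and 0.0524), Insm1 library 3 (0.0536 for both) or control 3 (0.0722 and 0.071). Kdm1a kept its call in 2 of 6, missing it without Insm1 library 2 (0.0959), Insm1 library 3 (0.0971), control 1 (0.0718) or control 3 (0.108). Prmt6 kept its call in 1 of 6, without control 2, with the others between 0.0504 and 0.122. With the replicate block the adjusted p was 0.0755 for Kdm1a and 0.0674 for Prmt6. None of the 15 PRC1 partners, 7 PRC2 partners, 13 COMPASS partners (subunits shared by the Kmt2 and Setd1 complexes) or 15 histone acetyltransferase genes was called.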

How the data were processed

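Reverse transcription was primed at the poly(A) tail with switching to a template oligo, per the labels' protocols, with PCR of 12 cycles on cDNA and 15 on the sheared library before single 75-base reads. This carries no strand mark and no molecular identifiers. The submitters' processing notes name the build GRCm38 and the tools Bowtie, bcl2fastq and TopHat2 2.0.13. How reads were counted, and on which annotation, is not stated in the sources used here. The authors deposited whole-number counts per gene and, separately, TPM. The deposited TPM of 96.0% of 8233 genes with at least 500 counts match, within 0.02 on the log2 scale, division by the genomic span of the gene with introns, and 1.1% match the exon length. Levels were therefore recomputed here from counts and merged GENCODE M21 exons, a choice made after seeing the data.

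Genes were filtered by filterByExpr (13560 left), scaled by TMM and fitted to group with edgeR 4.0.16 under R 4.3.3 (quasi-likelihood, robust), two-sided, with Benjamini-Hochberg adjustment over all tested genes and a threshold of 0.05. Standard errors come from the F statistic. CPM are TMM-scaled. The apical-progenitor and projection-neuron genes called are from marker lists. No pair of libraries of a group agreed within counting noise (chi-square per degree of freedom 12.93 to 32.48), so none was treated as deposited more than once. This does not show that they are independent samples. The members and gene lists were chosen with earlier results of these data known. Values by library are given for members that were called, did not overlap, or had the highest deposited TPM or the largest fold change in their role group, and for Kdm6a, Kdm5c, Kdm5d and Dot1l, chosen after their values were seen. Results for 1 member are not reported here, though the counts include it. From the further lists called genes are named. Tried beside this were DESeq2 1.42.0, limma 3.58.1 (voom, or on log2 of the deposited TPM), RLE or upper-quartile scaling, and other filters and thresholds. A fit that is not robust, removal of the Insm1 counts, a replicate block and leaving out each library were tried too.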

Additional observations from a re-analysis of the deposited data

How the results depend on the processing

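The Kdm6b call held under RLE and upper-quartile scaling, limma-voom, no filter, a filter of 5 CPM in 3 libraries, the fit that is not robust and removal of the Insm1 counts, with 1 member higher and 0 lower in each. DESeq2 called 3 members higher (Kdm6b, Kdm5b and Kdm3b) and 1 lower (Prdm16), and 1016 genes in all, which is 7.96% of those it tested. Limma on log2(TPM + 1) and log2(TPM + 0.1) of the deposited TPM called 0 members (Kdm6b adjusted p = 0.0518 and 0.0505). In all, 100 and 96 genes were called there in place of 454. At a threshold of 0.01, 0 members and 90 genes were called, and at 0.10, 2 members higher, 1 lower and 834 genes. With single libraries left out, 0 to 2 members were called higher, 0 lower, and 116 to 645 genes in all (194 and 218 without Insm1 libraries 2 and 3, 234, 645 and 116 without controls 1, 2 and 3). Of the partner genes, 4 higher and 1 lower in the fit reported, DESeq2 called 7 higher, limma on either log2 TPM scale 0 higher and 0 lower, and fits without single libraries 1 to 5 higher and 0 to 1 lower. These alternatives for partner genes were chosen after seeing the data. Same-numbered libraries did not deviate together (correlations 0.07, 0.03 and -0.06). With 3 libraries per group this cannot show whether same-numbered libraries shared a litter or a preparation day. With the replicate block 1 member (Kdm6b, adjusted p = 0.0297) was higher, 0 lower, and 331 genes were called, with 2 partner genes higher. With single libraries left out, the log2 fold change of Cbx7 ran from -0.058 (without Insm1 library 1) to 1.185, that of Prdm8 from -0.04 to 0.317 and the Ezh2 to Ezh1 log2 ratio from -0.094 to 0.202. The sign turned for Prdm8 without Insm1 library 2 (-0.014) or control 1 (-0.04), and for the Ezh2 to Ezh1 log2 ratio without Insm1 library 1 (-0.034) or control 1 (-0.094). The cause was not tested. Of 81 members, 34 share at least 1 window of 75 bases with a transcript of another gene, 11 of them over 10% of their windows.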

Other observations

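Kdm6b and Chd3, which both rose, are neighbours on chromosome 11, an observation made after their values were seen. Chd3 lies 29102 bases from Kdm6b. Of 7 tested genes within 100000 bases of Kdm6b, Chd3 was the 1 called in edgeR's test and the 1 with an unadjusted p below 0.05. Over all tested genes 3.35% were called and 17.2% had an unadjusted p below 0.05 in that test. Tmem88, the nearest at 274 bases, had a log2 fold change of 0.39 (edgeR adjusted p = 0.331). Naa38 and Cyb5d1, which like Tmem88 lie between Chd3 and Kdm6b, had log2 fold changes of 0.01 and -0.03.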
